A study of Mus musculus with 16 samples.

Results

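The genes described here are those for the collagen chains of the mouse, read in ventricular RNA of hearts with or without transverse aortic constriction (TAC), in which a ligature narrows the aorta and raises the pressure load on the left ventricle. The annotation and the count table both held 44 collagen chain genes. A gene was kept when at least 10 counts were recorded in at least 4 of the 16 hearts, and 41 genes met this rule. The 3 that did not were Col6a4, Col9a1 and Col10a1, with at most 7, 2 and 11 counts in any heart. Just inside the rule lay Col19a1, which reached 10 counts in 4 hearts, and Col2a1, Col17a1 and Col24a1, which reached it in 5. By the structure of their protein the 41 genes fell into 11 fibrillar chains, 6 basement membrane chains, 8 FACITs (fibril-associated collagens with interrupted triple helices), 5 beaded filament chains, 4 transmembrane collagens, 2 multiplexins, 2 short-chain network collagens and 3 others. Of the 41, 40 passed the filter on low counts and were tested, and Col19a1 was not. A member at a low level can pass that filter through the group in which it is higher, so counts below describe the tested members.

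All 16 hearts came from male mice with the aMHC-MerCreMer transgene and Trbp-Flox/Flox alleles, and 4 hearts made up each of 4 groups. Control mice received corn oil and Trbp-cKO mice received tamoxifen at 30 mg/kg daily for 5 days, in both cases when 4 weeks old. Each mouse then had TAC or sham surgery, and ventricles were taken 8 weeks later at 16 weeks of age. Trbp, whose gene symbol is Tarbp2, is an RNA-binding partner of Dicer. The αMHC promoter drives the Cre in cardiomyocytes, so collagen-producing cells such as fibroblasts were not its target, and no group here had tamoxifen without the deletion, so that drug and deletion cannot be told apart. Replicates were separate hearts. Because whole ventricle was sequenced, a change in the number of cells of a type and a change in RNA per cell cannot be told apart.

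Collagen chains wind together, as like or unlike chains, into a triple helix that can form only where glycine recurs at a fixed spacing, the Gly-X-Y repeat. Fibrillar collagens, chiefly types I and III in the heart, build the interstitial fibres that tie myocytes together, and type IV collagen builds the sheet-like basement membrane around myocytes and capillaries. FACITs sit on the surface of fibrils, type VI forms beaded filaments, and type VIII forms short-chain networks in vessel walls. Cardiac fibroblasts are the main source of the fibrillar chains, and a stressed heart that accumulates them is said to be fibrotic.

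Fibrillar chains can be told from the other classes by their coding sequence, and stretches of 30 codons from the annotated coding sequence (GENCODE, GRCm38) are shown for the most abundant chain of 4 classes to make the unbroken and the broken repeat visible. Capitals mark glycine codons. Col3a1 (codons 254 to 283) has a glycine at every step of the repeat. The windows of Col4a1 (codons 148 to 177), Col16a1 (codons 1147 to 1176) and Col8a1 (codons 520 to 549) each contain a break. In Col4a1 and Col8a1 the spacing shifts at the break, whereas in Col16a1 a glycine codon is missing and the spacing is kept.
Col3a1: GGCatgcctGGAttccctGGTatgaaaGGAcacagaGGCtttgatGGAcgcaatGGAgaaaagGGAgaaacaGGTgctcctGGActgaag
Col4a1: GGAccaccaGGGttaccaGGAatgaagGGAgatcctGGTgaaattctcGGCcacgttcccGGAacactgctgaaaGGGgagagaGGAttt
Col16a1: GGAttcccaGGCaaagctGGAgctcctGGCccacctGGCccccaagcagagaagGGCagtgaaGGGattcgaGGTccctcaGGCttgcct
Col8a1: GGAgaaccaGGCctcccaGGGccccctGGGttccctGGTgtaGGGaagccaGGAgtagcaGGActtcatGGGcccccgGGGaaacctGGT

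Over whole coding sequences, the longest unbroken run was 216 to 344 Gly-X-Y triplets in the 11 fibrillar chains. It was 39 to 66 triplets in the 6 basement membrane chains, whose repeat was split into 23 to 27 runs of at least 3 triplets. In the FACITs it was 32 to 113 triplets, in the beaded filament chains 37 to 87, in the transmembrane collagens 40 to 55, in the short-chain network collagens 59 to 60 and in both multiplexins 30. Fibrillar chains did not overlap any other class in this measure. The classes were themselves set by protein structure, so this describes them and is not a separate result.

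The libraries held 45166994 to 68274222 counts. Tarbp2 stood at 21.1 to 33.3 CPM (the count scaled to library size by TMM) in the 8 control hearts and at 7.14 to 11.4 CPM in the 8 Trbp-cKO hearts. Within the control TAC group, hearts 1 and 2 stood apart from hearts 3 and 4: mitochondrial transcripts took 38.2% and 38.8% of their counts against 25.2% and 21.7%, with 18.2% to 26.3% in the other 12 hearts. The summed level of 7 cardiomyocyte markers was 21521 and 16913 CPM in hearts 1 and 2 against 40026 and 40058 CPM in hearts 3 and 4, that of 8 endothelial markers 2365 and 2534 CPM against 1235 and 1252 CPM, and that of 6 activated fibroblast markers 737 and 898 CPM against 301 and 388 CPM. Trbp-cKO TAC heart 4 had the highest level of its group for 29 of the 40 tested collagen genes, with a cardiomyocyte marker sum of 25466 CPM against 32609 to 40188 CPM in the other 3 and an endothelial sum of 1811 CPM against 1059 to 1202 CPM. Trbp-cKO sham heart 3 was the highest of its group for 26 of the 40, with the lowest cardiomyocyte sum of its group (36619 CPM against 40008 to 43916 CPM) and an endothelial sum of 1818 CPM against 1161 to 1294 CPM. The part of these differences in the collagen values was not tested, and the overall numbers of called collagen genes below are also given without control TAC hearts 1 and 2 and without Trbp-cKO TAC heart 4.

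The order of levels was set by the basement membrane. Over all 16 hearts Col4a1 was the most abundant chain at 83.8 CPM per kb of exons, followed by Col4a2 at 70.5, Col3a1 at 29.9, Col1a1 at 28.7 and Col6a1 at 26.4. Col4a1 and Col4a2 led in each of the 4 groups, and the order of the other 3 differed between groups on this scale. It also depended on the length used: per kb of the principal coding transcript, Col4a1 and Col4a2 led again and were followed by Col3a1 at 52.7, Col1a2 at 46.6 and Col1a1 at 31.8 CPM per kb. Every heart exceeded 100.0 CPM for 4 genes, Col1a2, Col3a1, Col4a1 and Col4a2, and every heart stayed below 1 CPM for 6 genes, Col2a1, Col17a1, Col19a1, Col24a1, Col26a1 and Col28a1. All collagen genes together took 1855 ± 96 CPM (SD, n = 4) in control sham hearts, 2749 ± 655 in control TAC, 1995 ± 289 in Trbp-cKO sham hearts and 4211 ± 817 in Trbp-cKO TAC. Basement membrane chains supplied 50.4% ± 2.20 of these counts in control sham hearts, 43.7% ± 3.57 in control TAC, 46.1% ± 2.96 in Trbp-cKO sham hearts and 38.4% ± 3.29 in Trbp-cKO TAC. For the fibrillar chains the shares were 27.3% ± 3.05, 32.8% ± 1.24, 31.8% ± 2.32 and 38.0% ± 2.84 in the same order. Fibrillar and basement membrane chains thus drew almost level on average in Trbp-cKO TAC hearts. In hearts 1 to 3 of that group basement membrane chains stayed higher (1568, 1440 and 1561 CPM against 1499, 1223 and 1491). In heart 4 fibrillar chains were higher (2255 against 1818 CPM). The FACITs supplied 1.69%, 2.54%, 2.18% and 3.99%, and the short-chain network collagens 1.20%, 3.41%, 1.74% and 4.22%. These sums and shares are descriptions without a test, and a longer transcript adds more counts to them.

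**Figure D1:**
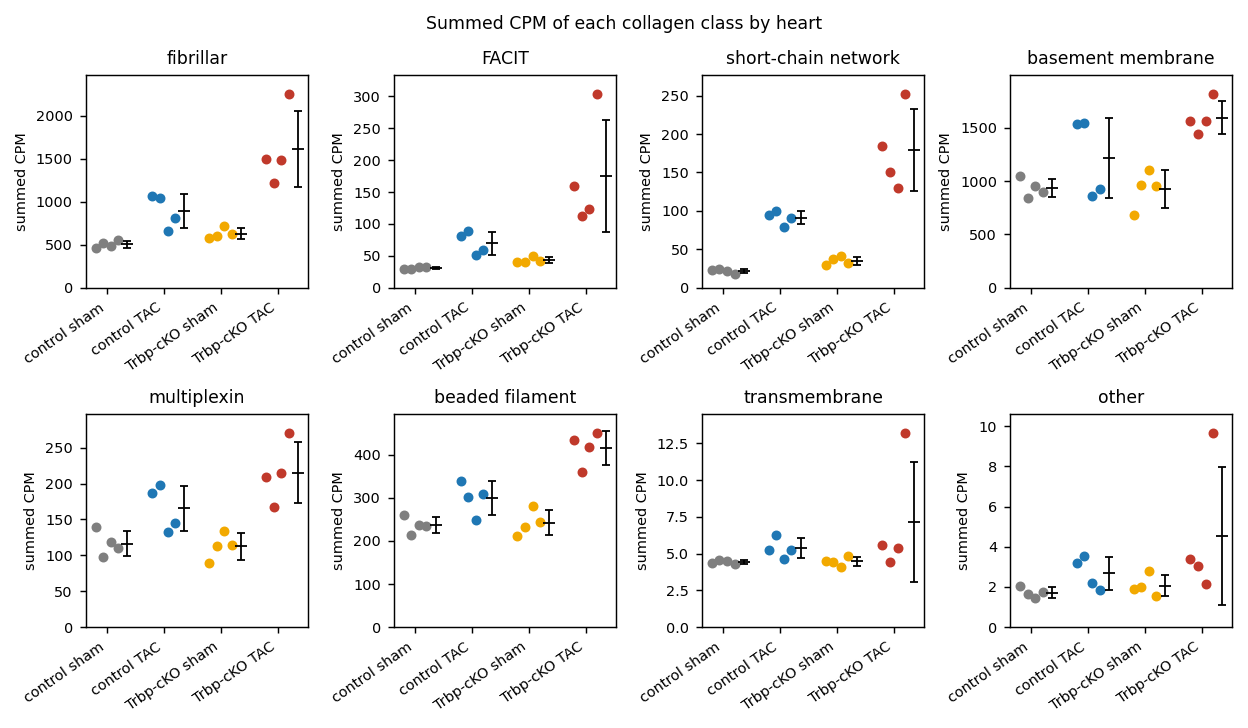
Summed level of the collagen chain genes of each class, in CPM from 0, 1 panel a class, in the 16 hearts. Points are single hearts and bars the mean ± SD of 4, and the fibrillar sum goes from 505 CPM on average in control sham hearts to 1617 CPM in Trbp-cKO TAC hearts while the basement membrane sum goes from 937 to 1597 CPM.

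Genes called higher after TAC in both genotypes included the chains of the type I and III fibres (Col1a1, Col1a2 and Col3a1), the minor fibrillar chain Col11a1, the FACITs Col12a1, Col14a1 and Col16a1, and both type VIII chains. A gene was called when its edgeR quasi-likelihood test, Benjamini-Hochberg adjusted over 19955 genes, gave an adjusted p of at most 0.05 and its log2 fold change was at least 0.8 in size. After TAC in control hearts, 14 of the 40 tested collagen genes were called higher and 1 lower, where 2.5% of all genes tested were called higher and 1.25% lower. Between Trbp-cKO and control hearts after TAC, 9 were called higher and none lower, against 1.55% and 0.912% of all genes, and 18 lay higher and 2 lower at an unadjusted p under 0.05, which 21.4% of all genes passed in either direction. Between Trbp-cKO TAC and Trbp-cKO sham hearts, 19 were called higher and 1 lower, against 3.23% and 2.34%. The comparison between genotypes shares a group of hearts with each of the other 2, which share none.

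In sham hearts no collagen gene was called in either direction between the genotypes by edgeR, where 0.511% of all genes were called higher and 0.456% lower. At an unadjusted p under 0.05, 9 collagen genes lay higher and 3 lower in Trbp-cKO sham hearts, where 13.7% of all genes passed that p in either direction. DESeq2 called 0 higher and 2 lower, the edgeR exact test and the quasi-likelihood fit on these 2 groups alone each called 1 higher and 2 lower. The gene called higher was Col12a1 and those called lower were Col22a1 and Col5a3.

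The median log2 fold change over the tested collagen genes was 0.69 after TAC in control hearts, 0.18 for deletion in sham hearts, 0.40 for deletion after TAC and 0.94 after TAC in Trbp-cKO hearts, where the medians of all genes were 0.02, 0.01, -0.01 and -0.00. Fold changes lay above 0 for 35, 29, 31 and 33 of the 40 in those comparisons. Every TAC heart lay above every sham heart of the control genotype for 17 collagen genes and below for 1, against 8.64% and 8.78% of all genes. Between genotypes in sham hearts this was so for 8 and 3 genes (7.74% and 6.96% of all genes), between genotypes after TAC for 12 and 1 (6.12% and 3.93%), and between Trbp-cKO TAC and sham for 23 and 1 (9.05% and 8.14%).

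The call counts depended on the hearts that stood apart. Without control TAC hearts 1 and 2 the 14 genes called higher after TAC in control hearts became 3, Col12a1, Col4a4 and Col8a1, and Col6a6 was no longer called lower, while the 9 called higher between genotypes after TAC became 12, Col3a1, Col4a1, Col4a2 and Col16a1 being added and Col14a1 lost. Without Trbp-cKO TAC heart 4 those 9 became 4, Col11a1, Col12a1, Col22a1 and Col8a2. The other 5 kept an adjusted p under the threshold but not the fold, with log2 fold changes of 0.78 for Col1a1, 0.67 for Col1a2, 0.77 for Col5a2, 0.72 for Col8a1 and 0.63 for Col14a1. Col1a2 also missed the fold without control TAC heart 3 (0.79), and Col11a1 and Col14a1 missed the adjusted p without Trbp-cKO TAC heart 1 (0.0586 and 0.063). Col14a1 was lost as well without control TAC heart 1, 3 or 4 alone. A fit on the 2 TAC groups alone called 0 of them. The 19 called higher between Trbp-cKO TAC and Trbp-cKO sham ranged from 17 to 20 when any single heart was left out.

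**Figure D2:**
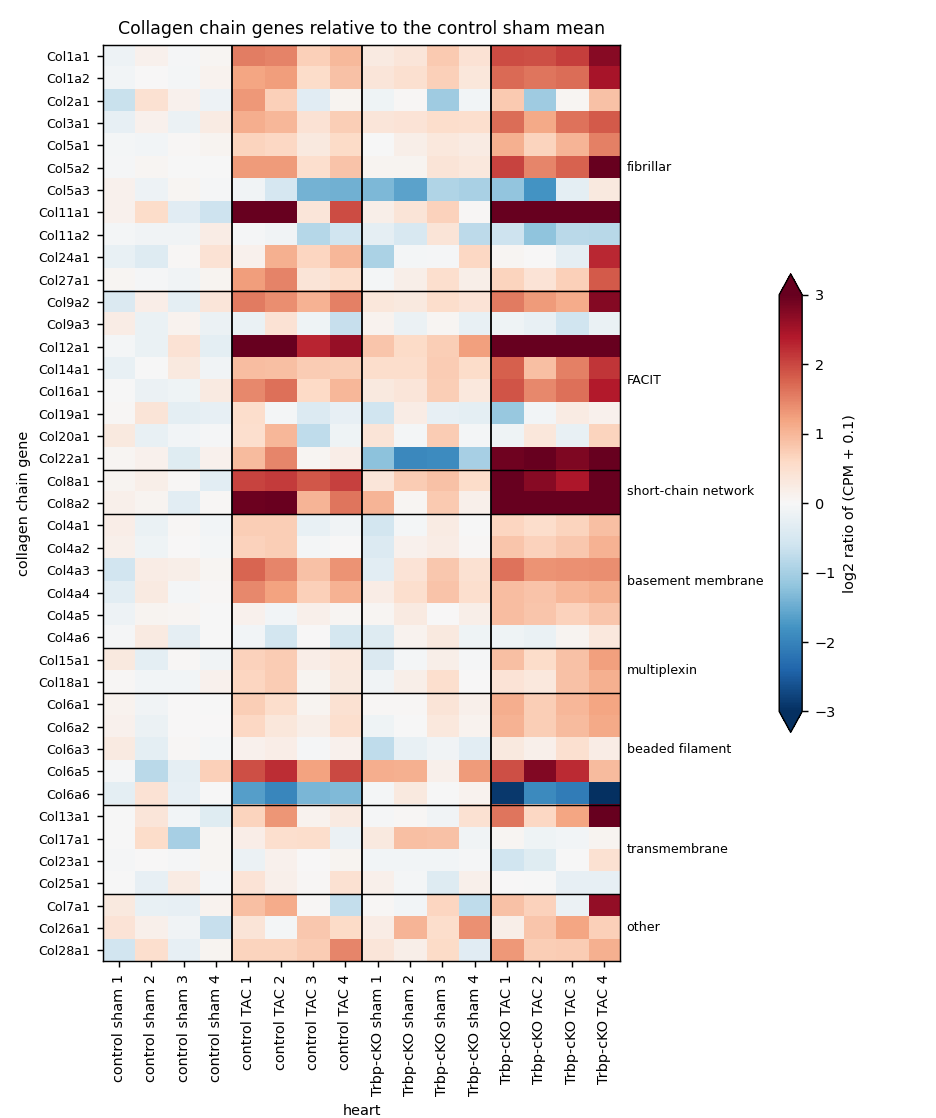
Level of each collagen chain gene in each of the 16 hearts, as the log2 ratio of CPM + 0.1 to the control sham mean + 0.1, with colour limits at 3 and -3 and genes ordered by class. Col11a1, Col12a1, Col22a1, Col8a1 and Col8a2 are darkest red in the Trbp-cKO TAC hearts, and Col6a6 is blue in all 8 TAC hearts.

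**Figure D3:**
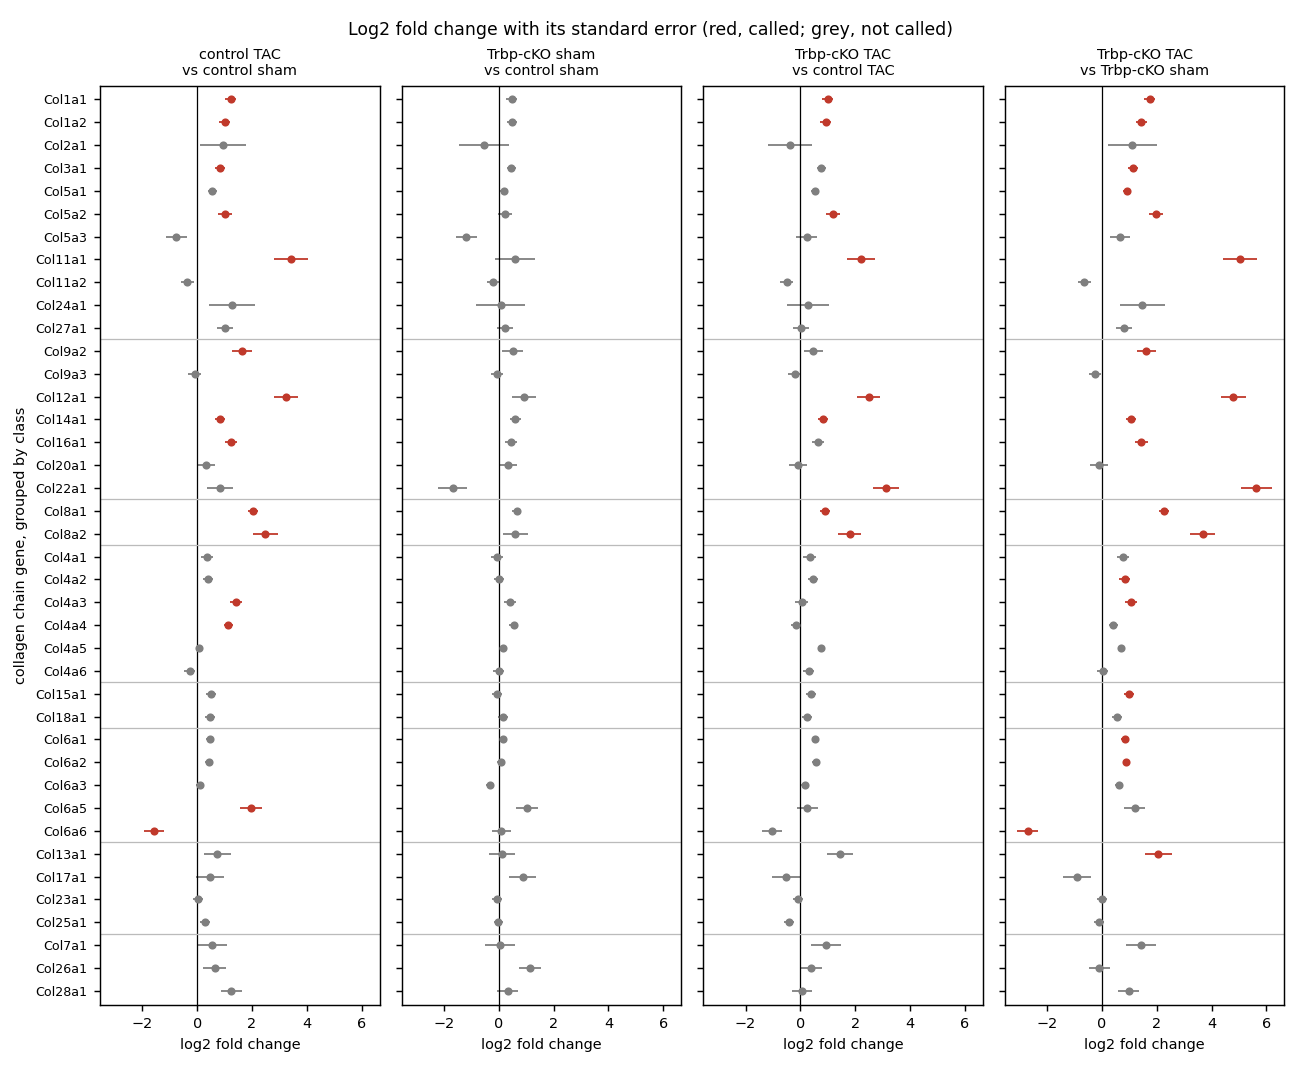
Log2 fold change with its standard error for each tested collagen gene in the 4 pairwise comparisons, red where the gene was called and grey where not. After TAC 14 genes are called higher in control hearts and 19 in Trbp-cKO hearts, and the sham comparison between genotypes has none.

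Among the fibrillar chains, 5 of 11 were called higher after TAC in control hearts, 0 between genotypes in sham hearts, 4 between genotypes after TAC and 6 between Trbp-cKO TAC and sham, where the shares of all genes are those given above. The 5 became 0 without control TAC hearts 1 and 2, and without Trbp-cKO TAC heart 4 the 4 became 1 and the 6 became 5. Col3a1, the single chain of type III collagen, lies on chromosome 1 from 45311538 to 45349706 (plus strand, GRCm38). Its level was 139, 178, 145 and 193 CPM in control sham hearts 1 to 4, 347, 327, 219 and 271 in control TAC, 212, 216, 237 and 233 in Trbp-cKO sham hearts and 524, 361, 509 and 583 in Trbp-cKO TAC. Trbp-cKO sham hearts lay above all control sham hearts, Trbp-cKO TAC hearts lay above all others, and of the control TAC hearts heart 3 lay within the Trbp-cKO sham range. Col3a1 rose 1.78-fold after TAC in control hearts (log2 fold change 0.83 ± 0.17 SE, adjusted p = 0.0137, edgeR) and 2.2-fold in Trbp-cKO hearts (1.14 ± 0.17, adjusted p = 0.00066). Between genotypes after TAC it was 1.7-fold higher (0.76 ± 0.17, adjusted p = 0.0201, edgeR), below the fold threshold. The control TAC call did not hold without hearts 1 and 2, where the log2 fold change was 0.58 (adjusted p = 0.193), nor when control TAC heart 1 or 2 or control sham heart 1 or 3 alone was left out, nor in the fit on these 2 groups.

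The next chains were chosen after their values were seen. Col1a1 and Col1a2 encode the chains of type I collagen, the main load-bearing fibre. Col1a1 (chromosome 11, 94936224 to 94953042) stood at 72.2, 87.6, 79.2 and 83.9 CPM in control sham hearts, 233, 225, 132 and 159 in control TAC, 97.0, 103, 139 and 108 in Trbp-cKO sham hearts, and 316, 307, 338 and 533 in Trbp-cKO TAC. Each TAC group lay wholly above its sham group, and every Trbp-cKO TAC heart lay above every control TAC heart. Its log2 fold change between genotypes after TAC was 1.00 ± 0.21 (adjusted p = 0.0129, edgeR), and 0.78 without Trbp-cKO TAC heart 4 (adjusted p = 0.0224), just under the fold threshold. Col1a2 (chromosome 6, 4504814 to 4541544) stood at 116 to 132 CPM in control sham hearts, 178 to 293 in control TAC, 154 to 201 in Trbp-cKO sham and 369.6 to 681 in Trbp-cKO TAC. In control hearts the rise after TAC was called for both (1.21 ± 0.21 for Col1a1, adjusted p = 0.00561, and 0.99 ± 0.20 for Col1a2, adjusted p = 0.0113, edgeR). With control TAC hearts 1 and 2 left out it was 0.85 for Col1a1 (adjusted p = 0.0784) and 0.73 for Col1a2 (adjusted p = 0.15).

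Col3a1 and Col1a1 did not move in proportion. Per base of the principal coding transcript, the ratio of Col3a1 to Col1a1 was 2.15 ± 0.22 (SD, n = 4) in control sham hearts and 1.68 ± 0.13 in control TAC, 2.17 ± 0.24 in Trbp-cKO sham hearts and 1.45 ± 0.29 in Trbp-cKO TAC. Sham and TAC hearts did not overlap within either genotype (1.95 to 2.45 against 1.55 to 1.82, and 1.81 to 2.33 against 1.16 to 1.77), and the TAC groups overlapped each other. Per base of all exons, the length used for the order of levels, the means were 1.35, 1.05, 1.36 and 0.91, so which of the 2 chains stood higher rested on the length, while the relation of the hearts to each other did not. This ratio was described without a test.

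Type V collagen starts and thins the fibrils that type I fills, and its chains differed from each other. Col5a2 (chromosome 1, 45374321 to 45503282) stood at 27.9 to 29.7 CPM in control sham, 40.7 to 69.4 in control TAC, 30.4 to 37.7 in Trbp-cKO sham, and 118, 79.7, 98.9 and 231 CPM in Trbp-cKO TAC hearts 1 to 4. Its log2 fold change was 1.01 ± 0.26 after TAC in control hearts (adjusted p = 0.0346), 1.19 ± 0.26 between genotypes after TAC (adjusted p = 0.0174) and 1.97 ± 0.27 after TAC in Trbp-cKO hearts (adjusted p = 0.000245, edgeR). The first of these was lost when any one of the 4 control sham hearts or either of control TAC hearts 1 and 2 was left out. Col5a1 was called only between Trbp-cKO TAC and sham, at 95.9, 72.9, 93.6 and 132 CPM against 45.8, 51.9, 57.6 and 54.6 CPM (0.91 ± 0.15, adjusted p = 0.00107, edgeR), and at 0.74 without Trbp-cKO TAC heart 4 it was under the fold threshold. Per base of the principal transcript, the ratio of Col5a2 to Col5a1 was 0.75 to 0.86 in control sham, 0.91 to 1.23 in control TAC, 0.75 to 0.84 in Trbp-cKO sham and 1.34 to 2.22 in Trbp-cKO TAC hearts, so that both TAC groups lay apart from the sham groups and from each other.

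Col5a3, the third type V chain, took another course. It stood at 50.2, 41.2, 47.6 and 44.7 CPM in control sham hearts, 42.6, 32.1, 17.1 and 16.8 in control TAC, 18.0, 15.1, 24.4 and 23.2 in Trbp-cKO sham hearts, and 20.2, 13.3, 37.3 and 56.4 in Trbp-cKO TAC. All Trbp-cKO sham hearts lay below all control sham hearts, and both TAC groups were spread widely. The log2 fold change between genotypes in sham hearts was -1.19 ± 0.38 (adjusted p = 0.143, edgeR), which did not pass, although DESeq2, the exact test and the fit on these 2 groups called it lower.

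Col11a1, a chain of type XI collagen that regulates fibril diameter in cartilage, had one of the largest fold changes of all members. It lies on chromosome 3 from 114030540 to 114220718. Its level was 0.13, 0.20, 0.06 and 0.04 CPM in control sham hearts, 2.09, 1.84, 0.17 and 0.70 in control TAC, 0.14, 0.17, 0.23 and 0.11 in Trbp-cKO sham hearts, and 6.56, 5.31, 4.30 and 6.07 in Trbp-cKO TAC. Trbp-cKO TAC hearts were well above all 12 others, and control TAC heart 3 lay within the sham range. The log2 fold change was 3.42 ± 0.63 after TAC in control hearts (adjusted p = 0.00759), 2.22 ± 0.51 between genotypes after TAC (adjusted p = 0.0216) and 5.05 ± 0.61 after TAC in Trbp-cKO hearts, a 33.0-fold rise (adjusted p = 0.000108, edgeR). Without control TAC hearts 1 and 2 the first became 1.96 (adjusted p = 0.14) and the second 3.67 (adjusted p = 0.00189), and the second was lost without Trbp-cKO TAC heart 1.

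The other fibrillar chains were called in no comparison by the edgeR fit to all 16 hearts. Col11a2, the second type XI chain, stood at 9.86 to 12.5 CPM in control sham hearts and 4.52 to 6.82 CPM in Trbp-cKO TAC hearts, with a log2 fold change of -0.65 ± 0.23 between Trbp-cKO TAC and sham (adjusted p = 0.0999, edgeR). Col27a1, a minor fibrillar chain, stood at 6.60 to 7.53 CPM in control sham and 9.37 to 20.2 CPM in control TAC hearts, with no overlap (1.00 ± 0.29, adjusted p = 0.0536, edgeR), and DESeq2 and the exact test called this difference. Col2a1 of cartilage and Col24a1 remained below 1 CPM in every heart.

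**Figure D4:**
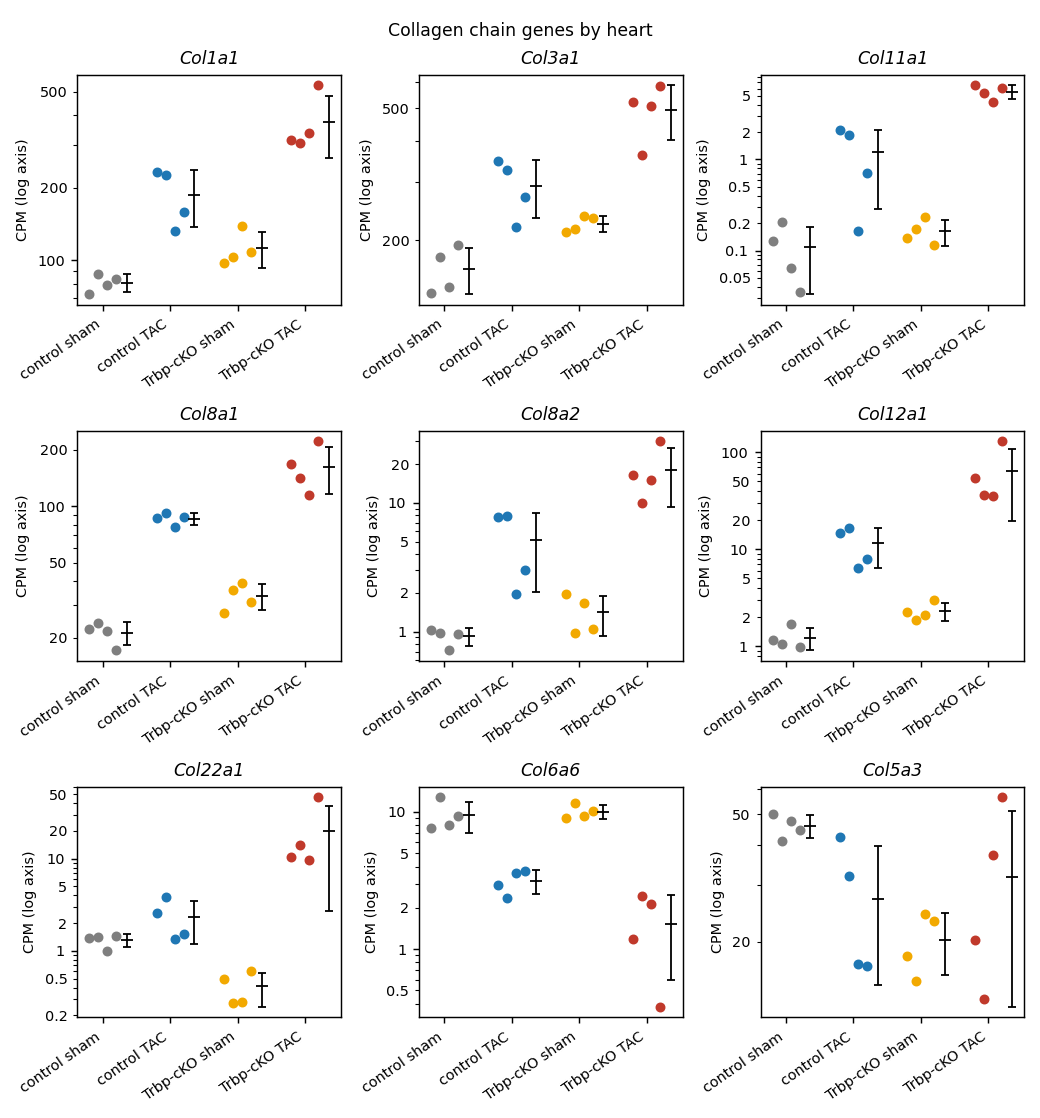
Level in CPM, on log axes, of 9 collagen chain genes in the 16 hearts, 4 points to a group, with bars for the mean ± SD. Col11a1 goes from 0.04 to 0.20 CPM in control sham hearts to 4.30 to 6.56 CPM in Trbp-cKO TAC hearts, and Col6a6 goes from 7.63 to 12.8 CPM to 0.38 to 2.43 CPM.

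Among the FACITs, 4 of the 7 tested were called higher after TAC in control hearts, 3 between genotypes after TAC and 5 between Trbp-cKO TAC and sham, against 2.5%, 1.55% and 3.23% of all genes. The 4 became 1 without control TAC hearts 1 and 2, and the 3 became 2 without Trbp-cKO TAC heart 4. Col12a1 (chromosome 9, 79598991 to 79718831), which bridges type I fibrils, stood at 1.16, 1.05, 1.69 and 0.99 CPM in control sham hearts, 14.9, 16.7, 6.38 and 7.99 in control TAC, 2.27, 1.88, 2.09 and 2.99 in Trbp-cKO sham hearts, and 54.7, 36.4, 35.8 and 130.1 in Trbp-cKO TAC. None of the 4 groups overlapped another. It rose 9.36-fold after TAC in control hearts (log2 fold change 3.23 ± 0.44, adjusted p = 0.00107) and 27.8-fold in Trbp-cKO hearts (4.80 ± 0.45, adjusted p = 1.36e-05), and was 5.6-fold higher between genotypes after TAC (2.49 ± 0.40, adjusted p = 0.0025, edgeR). In sham hearts the genotypes differed by 0.91 ± 0.43 (adjusted p = 0.361, edgeR), which did not pass. The control TAC call held without hearts 1 and 2 (2.55, adjusted p = 0.0193) and the genotype call without Trbp-cKO TAC heart 4 (1.88, adjusted p = 0.0021), where the rise in Trbp-cKO hearts was 4.20 (adjusted p = 2.78e-06).

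Col22a1 encodes a FACIT found at tissue junctions such as that of muscle and tendon, on chromosome 15 from 71795795 to 72034227. It stood at 1.37, 1.43, 0.99 and 1.45 CPM in control sham hearts, 2.60, 3.79, 1.36 and 1.53 in control TAC, 0.50, 0.27, 0.28 and 0.60 in Trbp-cKO sham hearts, and 10.5, 14.2, 9.80 and 46.2 in Trbp-cKO TAC. Trbp-cKO hearts were thus the lowest of all after sham surgery and the highest of all after TAC, with no overlap with control hearts in either setting. The log2 fold change between genotypes was -1.68 ± 0.53 in sham hearts (adjusted p = 0.141) and 3.12 ± 0.49 after TAC (adjusted p = 0.00182), and that after TAC was 0.82 ± 0.48 in control hearts (adjusted p = 0.274) and 5.63 ± 0.57, or 49.5-fold, in Trbp-cKO hearts (adjusted p = 2.32e-05, edgeR). Without Trbp-cKO TAC heart 4 the genotype value after TAC was 2.31 (adjusted p = 0.001), the rise in Trbp-cKO hearts was 4.81 (adjusted p = 2.78e-06), and the sham value passed (-1.68, adjusted p = 0.0206).

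Col22a1 was also the one collagen gene called in the interaction, the test of whether the response to TAC differed between genotypes. In that test 0.446% of all genes were called higher and 0.426% lower, and 7 collagen genes lay higher and 2 lower at an unadjusted p under 0.05, which 15.4% of all genes passed in either direction. Its interaction was 4.81 ± 0.72 on the log2 scale (adjusted p = 0.00635, edgeR). It was 3.99 without Trbp-cKO TAC heart 4, by far the highest of that group, and 5.49 without control TAC hearts 1 and 2 (adjusted p = 0.00153 and 0.00727). For Col12a1 and Col11a1 the interaction was 1.57 ± 0.58 and 1.62 ± 0.90 (adjusted p = 0.205 and 0.41, edgeR), so a different response of these chains to TAC in the 2 genotypes was not shown.

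Col16a1, the FACIT with the highest level per kb of exons over all 16 hearts although Col14a1 lay above it in both sham groups, lies on chromosome 4 from 130047840 to 130099283 and stood at 11.8, 10.5, 10.8 and 14.4 CPM in control sham hearts, 32.6, 37.4, 18.1 and 23.7 in control TAC, 14.7, 15.4, 19.9 and 14.8 in Trbp-cKO sham hearts, and 44.3, 32.3, 37.3 and 62.1 in Trbp-cKO TAC. Every TAC heart lay above every sham heart of its genotype, and the TAC groups overlapped. It rose in control hearts (1.23 ± 0.23, adjusted p = 0.00756) and in Trbp-cKO hearts (1.44 ± 0.23, adjusted p = 0.000852, edgeR), and the first was 0.81 without control TAC hearts 1 and 2 (adjusted p = 0.119). Col14a1, which binds fibrils through decorin, was at 11.2 to 16 CPM in control sham, 21.7 to 24.9 in control TAC, 18.9 to 22.2 in Trbp-cKO sham and 24.6 to 57.8 in Trbp-cKO TAC hearts. It was called between genotypes after TAC (0.83 ± 0.19, adjusted p = 0.0215, edgeR) although Trbp-cKO TAC heart 2 lay within the control TAC range, and 6 alternatives took its adjusted p past 0.05. Its rise after TAC in control hearts was called too (0.84 ± 0.19, adjusted p = 0.0222, edgeR). That call was lost without control sham heart 1, 2 or 4 or control TAC heart 1 or 2 alone (adjusted p from 0.0587 to 0.0678). Col9a2, a type IX chain, was called after TAC in both genotypes but stayed at or below 2.70 CPM in every heart, and its call in control hearts was lost without control sham heart 1 or 3 or control TAC heart 1 alone (adjusted p from 0.0549 to 0.0612). Col9a3, Col19a1 and Col20a1 had no call, and Col19a1 stood at 0.00 to 0.22 CPM.

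Type VIII, the short-chain network collagen, was the class in which both members were called after TAC in both genotypes and between genotypes after TAC. Of all genes, 2.5% were called higher after TAC in control hearts, 3.23% in Trbp-cKO hearts and 1.55% between genotypes after TAC. In control hearts 1 of the type VIII chains was left without control TAC hearts 1 and 2. Between genotypes 1 was left without Trbp-cKO TAC heart 4. Col8a1 (chromosome 16, 57624258 to 57754737) stood at 22.4, 23.9, 21.7 and 17.1 CPM in control sham hearts, 87.0, 91.7, 77.4 and 88.1 in control TAC, 27.2, 36, 39.1 and 31.1 in Trbp-cKO sham hearts, and 168, 141, 115 and 222 in Trbp-cKO TAC. The 4 groups did not overlap, and unlike most fibrillar chains Col8a1 had control TAC hearts 3 and 4 close to hearts 1 and 2. It rose 4.04-fold after TAC in control hearts (2.02 ± 0.18, adjusted p = 5.56e-05), 4.84-fold in Trbp-cKO hearts (2.28 ± 0.18, adjusted p = 4.18e-06) and was 1.88-fold higher between genotypes after TAC (0.91 ± 0.18, adjusted p = 0.00849, edgeR). Without control TAC hearts 1 and 2 the rise in control hearts was 1.96 (adjusted p = 0.00113). In sham hearts the genotypes differed by 0.65 ± 0.18 (adjusted p = 0.0836, edgeR), which did not pass.

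Its partner Col8a2 (chromosome 4, 126286793 to 126314330) stood at 1.04, 0.98, 0.71 and 0.95 CPM in control sham hearts, 7.75, 7.91, 1.97 and 2.98 in control TAC, 1.95, 0.97, 1.67 and 1.04 in Trbp-cKO sham hearts, and 16.4, 10.03, 15.1 and 30.1 in Trbp-cKO TAC. Control TAC hearts 1 and 2 were far above hearts 3 and 4, and every Trbp-cKO TAC heart was above all others. The log2 fold change was 2.48 ± 0.45 after TAC in control hearts (adjusted p = 0.00675), 1.80 ± 0.41 between genotypes after TAC (adjusted p = 0.0213) and 3.68 ± 0.45 in Trbp-cKO hearts (adjusted p = 0.000118, edgeR). In the absence of control TAC hearts 1 and 2 the first became 1.43 (adjusted p = 0.117).

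Promoter sequence was read for the fibrillar chain with the highest level, Col3a1, and for Col8a1 and Col11a1, which had larger fold changes. The RefSeq start of each coincides with the annotated gene start. The 150 bases before the start of Col3a1 (chr1:45311388-45311537, plus strand), Col8a1 (chr16:57754738-57754887, minus strand) and Col11a1 (chr3:114030390-114030539, plus strand) are given 5′ to 3′ from RefSeq (GRCm38.p6), with matches to the searched motifs in capitals.
Col3a1: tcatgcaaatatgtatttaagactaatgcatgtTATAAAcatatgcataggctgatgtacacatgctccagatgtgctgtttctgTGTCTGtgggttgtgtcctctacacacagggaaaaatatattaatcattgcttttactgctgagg
Col8a1: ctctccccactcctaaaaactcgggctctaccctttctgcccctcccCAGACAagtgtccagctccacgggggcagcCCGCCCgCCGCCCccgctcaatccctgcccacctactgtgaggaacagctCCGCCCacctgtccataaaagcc
Col11a1: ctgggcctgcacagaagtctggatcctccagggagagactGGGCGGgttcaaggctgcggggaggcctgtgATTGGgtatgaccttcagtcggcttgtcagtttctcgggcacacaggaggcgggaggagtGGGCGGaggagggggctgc

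Of the 41 members, 32 had an entry, and Col1a1, Col2a1, Col4a3, Col5a2, Col9a3, Col12a1, Col14a1, Col22a1 and Col26a1 had none. The motifs were searched on both strands. GGGCGG, the core of a GC box, was found in 17 of the 32 windows and in 28.6% of 32851 promoter windows of the same length. The CCAAT motif was found in 7 windows against 24.5%, TATAAA in 3 (Col3a1, Col11a2 and Col17a1) against 7.57%, CAGACA, part of the CAGA box bound by Smad3, in 5 against 10.3%, and GGAATG, the motif of TEAD factors, in 1 against 7.59%. The chains shown did not share one arrangement: Col3a1 had TATAAA and CAGACA, Col8a1 had 3 copies of GGGCGG and CAGACA, and Col11a1 had 2 copies of GGGCGG and CCAAT.

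Basement membrane collagen was the class with the highest sum in the first 3 groups and in Trbp-cKO TAC hearts 1 to 3. Of its 6 chains, 2 were called higher after TAC in control hearts, against 2.5% of all genes. Between genotypes after TAC 0 were called (1.55% of all genes), and between Trbp-cKO TAC and sham 2 (3.23%). Without control TAC hearts 1 and 2 the first count became 1 and the second 2, and without Trbp-cKO TAC heart 4 the last became 1. The genes of its 6 chains lie head to head in pairs, with the starts of Col4a1 and Col4a2 overlapping by 22 bases on chromosome 8, those of Col4a3 and Col4a4 72 bases apart on chromosome 1, and those of Col4a5 and Col4a6 1309 bases apart on chromosome X. Col4a1 and Col4a2 form the general network of vessels and muscle. Col4a1 (11198423 to 11312826) stood at 589.9, 450.1, 532 and 491 CPM in control sham hearts, 859, 866, 441 and 478 in control TAC, 351, 493, 611 and 508 in Trbp-cKO sham hearts, and 812, 743, 826 and 959 in Trbp-cKO TAC. In control TAC, hearts 1 and 2 were high and hearts 3 and 4 lay within or below the sham range, as given above for their endothelial marker sums. Col4a1 was called in no comparison: the log2 fold change was 0.36 ± 0.23 after TAC in control hearts (adjusted p = 0.311), 0.34 ± 0.23 between genotypes after TAC (adjusted p = 0.413) and 0.77 ± 0.23 after TAC in Trbp-cKO hearts (adjusted p = 0.0445, edgeR), the last below the fold threshold and past an adjusted p of 0.05 in 13 of 26 alternatives. Without control TAC hearts 1 and 2 the first became -0.17 and the second 0.85 (adjusted p = 0.879 and 0.022). Col4a2 (11312805 to 11449287) stood at 333 to 407 CPM in control sham and 594 to 752 CPM in Trbp-cKO TAC hearts, and was called between Trbp-cKO TAC and sham (0.83 ± 0.19, adjusted p = 0.0119, edgeR), but not without Trbp-cKO TAC heart 4 (0.76) or Trbp-cKO sham heart 1 (0.71), under the fold threshold. Between genotypes after TAC it had 0.46 (adjusted p = 0.178), or 0.86 without control TAC hearts 1 and 2 (adjusted p = 0.011).

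The other type IV pairs, chosen after their values were seen, moved differently. Col4a3 and Col4a4 form with Col4a5 the network known from the kidney glomerulus. Col4a3 stood at 3.57, 6.27, 6.05 and 5.59 CPM in control sham hearts, 18.4, 15, 9.97 and 13.9 in control TAC, 4.27, 7.2, 9.44 and 7.44 in Trbp-cKO sham hearts, and 16.9, 13.8, 14 and 14.3 in Trbp-cKO TAC. All TAC hearts lay above all sham hearts, and the genotypes overlapped after TAC. Its rise after TAC was 1.41 ± 0.23 in control hearts (adjusted p = 0.00435) and 1.05 ± 0.23 in Trbp-cKO hearts (adjusted p = 0.00807, edgeR), the first being 1.15 without control TAC hearts 1 and 2 (adjusted p = 0.0595), and between genotypes after TAC the difference was 0.04 ± 0.23 (adjusted p = 0.936). Col4a4 stood at 7.44 to 11.3 CPM in control sham, 15.2 to 25.5 in control TAC, 10.8 to 16.8 in Trbp-cKO sham and 16.7 to 19.5 in Trbp-cKO TAC hearts. It rose in control hearts (1.14 ± 0.17, adjusted p = 0.0017, edgeR), also without control TAC hearts 1 and 2 (0.89, adjusted p = 0.0329), and its value in Trbp-cKO hearts was 0.42 ± 0.16 (adjusted p = 0.126).

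Col4a5 (X, 141475385 to 141689234) varied little within each group. It stood at 35.7, 42.3, 41.5 and 39.4 CPM in control sham hearts, 43.6, 37.5, 44.3 and 41.3 in control TAC, 41.2, 48.3, 40.1 and 45 in Trbp-cKO sham hearts, and 75.2, 71.0, 64.6 and 71.2 in Trbp-cKO TAC. The first 3 groups overlapped and Trbp-cKO TAC hearts were above all of them, with control TAC hearts 1 and 2 within the range of the others. The log2 fold change was 0.07 ± 0.09 after TAC in control hearts (adjusted p = 0.658), 0.76 ± 0.09 between genotypes after TAC (adjusted p = 0.000289) and 0.69 ± 0.09 after TAC in Trbp-cKO hearts (adjusted p = 0.000209, edgeR), the last pair past the adjusted p and under the fold threshold. Its interaction was 0.62 ± 0.13 (adjusted p = 0.0352, edgeR), but 13 alternatives took it past 0.05, among them the fit without control TAC hearts 1 and 2 (adjusted p = 0.0729). Its neighbour Col4a6 (X, 141165403 to 141474076) stood at 1.1 to 2.06 CPM over all 16 hearts and did not pass in any comparison.

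**Figure D5:**
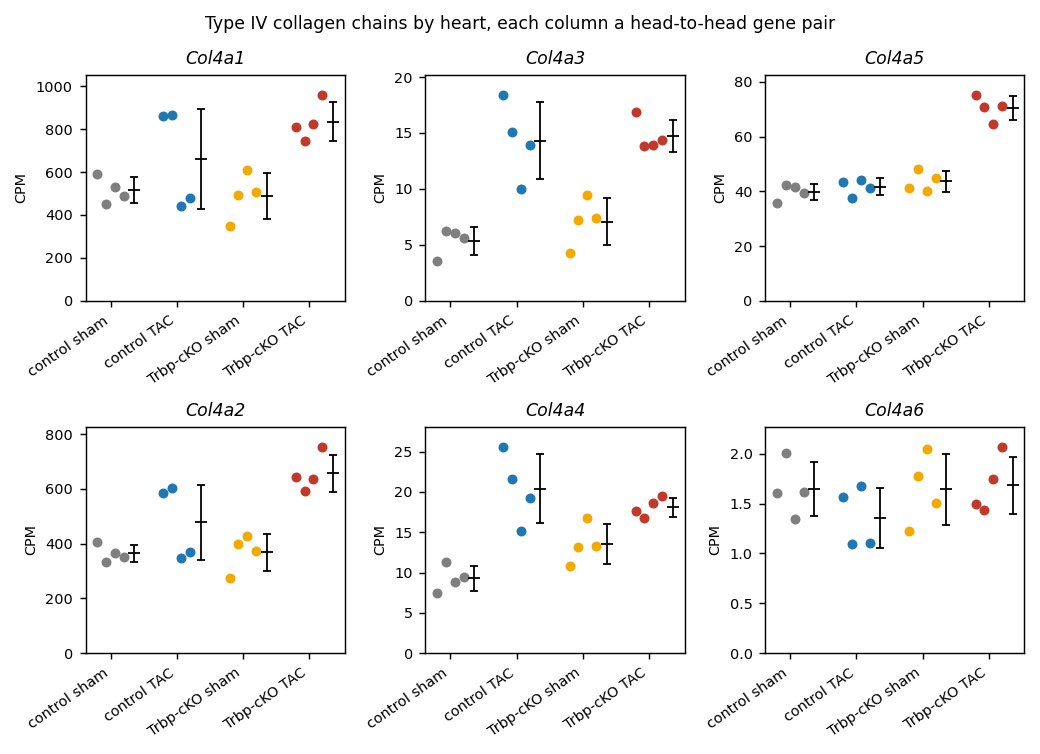
Level in CPM, on axes from 0, of the 6 type IV collagen genes in the 16 hearts, each column a head-to-head pair, with bars for the mean ± SD of 4. Col4a1 and Col4a2 separate control TAC hearts 1 and 2 from 3 and 4, Col4a3 and Col4a4 are higher in TAC than in sham control hearts, and Col4a5 is higher in Trbp-cKO TAC hearts alone, at 64.6 to 75.2 CPM.

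Multiplexins belong to basement membrane zones and release anti-angiogenic fragments. Col15a1 (chromosome 4, 47208161 to 47313167) stood at 126, 85.0, 107 and 96.1 CPM in control sham hearts, 166, 175, 119 and 129 in control TAC, 77.1, 98.7, 116 and 101 in Trbp-cKO sham hearts, and 192, 151, 190.4 and 243 in Trbp-cKO TAC. Only Trbp-cKO TAC and sham hearts were without overlap, and this was its one call (0.98 ± 0.18, adjusted p = 0.0025, edgeR). In control hearts the value was 0.51 ± 0.18 (adjusted p = 0.0944). Col18a1, the source of endostatin, stood at 12.0 to 27.1 CPM over all hearts with no call.

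Beaded filament chains went in opposite directions. Col6a1 and Col6a2 encode the first 2 chains of the type VI monomer. Col6a1 (chromosome 10, 76708792 to 76726168) stood at 89.9, 78.4, 84.1 and 82.6 CPM in control sham hearts, 139, 120.2, 89.3 and 116 in control TAC, 86.4, 86.0, 109 and 93.4 in Trbp-cKO sham hearts, and 179, 141, 166 and 190.0 in Trbp-cKO TAC. Control TAC heart 3 lay within the sham range, and Trbp-cKO TAC hearts were above all others. Its log2 fold change was 0.85 ± 0.14 between Trbp-cKO TAC and sham (adjusted p = 0.000986), 0.54 ± 0.14 between genotypes after TAC (adjusted p = 0.0318) and 0.47 ± 0.14 after TAC in control hearts (adjusted p = 0.0512, edgeR), of which the first passed both thresholds, and without Trbp-cKO TAC heart 4 it was 0.79, under that for fold. Col6a2 had 0.90 ± 0.13 between Trbp-cKO TAC and sham (adjusted p = 0.000445, edgeR), and Col6a3, the long partner of both, was at 31.2 to 73.9 CPM over all hearts with no call.

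Col6a5 and Col6a6 are alternatives to Col6a3 that lie side by side on chromosome 9 on the minus strand, from 105856078 to 105960643 and from 105687809 to 105828160. Col6a6 stood at 7.63, 12.8, 7.96 and 9.32 CPM in control sham hearts, 2.91, 2.35, 3.56 and 3.70 in control TAC, 9.09, 11.6, 9.30 and 10.2 in Trbp-cKO sham hearts, and 1.18, 2.43, 2.14 and 0.38 in Trbp-cKO TAC. Every TAC heart of either genotype was below every sham heart, and it was the one collagen gene called lower in any comparison by the edgeR fit to all 16 hearts. It fell by 1.59 ± 0.36 on the log2 scale in control hearts (adjusted p = 0.0212) and by 2.70 ± 0.38 in Trbp-cKO hearts (adjusted p = 0.000319, edgeR), a level 6.51-fold lower. The difference between genotypes after TAC was -1.03 ± 0.37 (adjusted p = 0.118). Leaving out control TAC hearts 1 and 2, the value in control hearts was -1.38 (adjusted p = 0.242), and it also missed the adjusted p when control TAC heart 1 or 2 or control sham heart 2 or 4 alone was left out (0.0509 to 0.0697). Col6a5, chosen after its values were seen, stood at 0.61 to 1.96 CPM in control sham and 2.80 to 5.73 CPM in control TAC hearts and rose there by 1.97 ± 0.40 (adjusted p = 0.013, edgeR), or 1.73 without hearts 1 and 2 (adjusted p = 0.131).

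The transmembrane and remaining collagens were scarce. Col13a1, a type II transmembrane protein of cell junctions with the highest level per kb of exons in its class over all 16 hearts, though below Col23a1 in the first 3 groups, stood at 0.83, 1.1, 0.79 and 0.64 CPM in control sham hearts, 1.40, 2.26, 0.91 and 1.04 in control TAC, 0.82, 0.86, 0.78 and 1.19 in Trbp-cKO sham hearts, and 2.75, 1.36, 2.04 and 9.01 in Trbp-cKO TAC. Trbp-cKO TAC heart 4 was far above the rest. The rise between Trbp-cKO TAC and sham was 2.06 ± 0.49 (adjusted p = 0.0134, edgeR), or 1.17 without that heart (adjusted p = 0.0335), and had no counterpart that passed in control hearts (0.73 ± 0.48, adjusted p = 0.333). Col7a1, the chain of anchoring fibrils, stood at 1.66, 1.12, 1.1 and 1.43 CPM in control sham, 2.55, 3.00, 1.36 and 0.77 in control TAC, 1.36, 1.24, 2.12 and 0.75 in Trbp-cKO sham hearts, and 2.51, 2.20, 1.16 and 8.75 in Trbp-cKO TAC hearts, with overlap in all comparisons and no call by the edgeR fit to all 16 hearts, although DESeq2 called it between Trbp-cKO TAC and sham. Col17a1, Col23a1, Col25a1, Col26a1 and Col28a1 had no call by the edgeR fit to all 16 hearts either, and all stayed below 3 CPM. Col28a1 was called higher after TAC in control hearts by DESeq2 and by edgeR without control sham heart 2.

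The enzymes that modify, cleave and cross-link collagen chains were followed as a list of 32 genes, all tested. After TAC in control hearts 1 was called higher (Pcolce, an enhancer of propeptide cleavage) and 1 lower (Adamts3, an N-propeptidase), against 2.5% and 1.25% of all genes, and in sham hearts 0 were called between genotypes, where P4ha2, a prolyl hydroxylase subunit, had -0.65 ± 0.12 (adjusted p = 0.0149, edgeR), under the fold threshold. Between genotypes after TAC 3 were called higher, all of them cross-linking lysyl oxidases, against 1.55% of all genes. P4hb, Adamts2 and Crtap also passed the adjusted p there, under the fold threshold. They had 0.62, 0.69 and 0.36 (adjusted p = 0.00253, 0.0242 and 0.0285, edgeR). Between Trbp-cKO TAC and sham hearts 11 were called higher and 3 lower (P3h4, Adamts3 and Tll2), against 3.23% and 2.34%. The median log2 fold change over the list was 0.37, 0.16, 0.32 and 0.34 in the 4 comparisons in the order used above for the collagen genes.

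Lox, the best known of the cross-linkers, stood at 5.54, 5.05, 5.8 and 6.68 CPM in control sham hearts, 17.1, 25.1, 6.16 and 7.16 in control TAC, 4.63, 3.49, 6.00 and 4.47 in Trbp-cKO sham hearts, and 38.8, 28.0, 31.4 and 125.3 in Trbp-cKO TAC. Control TAC hearts 1 and 2 lay above hearts 3 and 4, as they did for Col11a1 and Col8a2. For Lox hearts 3 and 4 were near the sham level. Between genotypes after TAC the log2 fold change was 2.01 ± 0.49 for Lox (adjusted p = 0.0267), 0.92 ± 0.23 for Loxl2 (adjusted p = 0.0337) and 1.37 ± 0.18 for Loxl4 (adjusted p = 0.000566, edgeR). Loxl2 stood at 42.0, 41.4, 27.3 and 32.2 CPM in control TAC and 62.8, 46.8, 50.4 and 109.7 in Trbp-cKO TAC hearts. Trbp-cKO TAC heart 4 was again the highest for both, and with it left out Lox was at 1.24 (adjusted p = 0.0552), Loxl2 at 0.58 (adjusted p = 0.0528) and Loxl4 at 1.37 (adjusted p = 0.00126). The calls of Lox and Loxl2 were also lost without control TAC heart 1 or 3 alone, and that of Loxl2 without control TAC heart 4 or Trbp-cKO TAC heart 1. Loxl4 stood at 0.94 to 1.25 CPM in control TAC and 2.49 to 2.93 CPM in Trbp-cKO TAC hearts, without overlap and without a split in either group.

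Markers of activated fibroblasts moved with these results, and general fibroblast markers were mostly not called. Of the 6 activated fibroblast markers (Postn, Cthrc1, Fn1, Cilp, Comp and Meox1), 5 were called higher after TAC in control hearts, 0 between genotypes in sham hearts, 4 between genotypes after TAC and 6 between Trbp-cKO TAC and sham, against 2.5%, 0.511%, 1.55% and 3.23% of all genes. Their sum was 105 to 123 CPM in control sham, 301 to 898 in control TAC, 154 to 199.9 in Trbp-cKO sham and 963 to 2610 CPM in Trbp-cKO TAC hearts. Control TAC hearts 1 and 2 had the highest sums of their group (737 and 898 CPM), as had Trbp-cKO TAC heart 4 (2610 CPM). The marker calls given here and in the next paragraph were not followed through the fits that left hearts out. Of 9 general fibroblast markers, among them Pdgfra, Tcf21 and Dcn, 1 (Mfap5) was called higher in each of the TAC against sham comparisons and 0 in the others, and their sum was 1562 to 1681, 1653 to 2348, 1707 to 2295 and 1512 to 2394 CPM in the 4 groups. In Trbp-cKO sham hearts 8 of these 9 lay above control sham, with a median log2 difference of 0.44, and Lum passed the adjusted p (0.74, adjusted p = 0.00293, edgeR). After TAC in control hearts 8 of the 9 also lay higher, with a median of 0.29 and Lum at 0.62 (adjusted p = 0.00516, edgeR). Between genotypes after TAC 3 of the 9 lay higher, and between Trbp-cKO TAC and sham 3.

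Markers of other cells were called in part, where the shares of all genes called are those given above. Of the 8 endothelial markers 1 (Egfl7) was called, higher after TAC in control hearts, where all 8 lay higher with a median of 0.50. Between genotypes after TAC all 8 lay lower, with a median of -0.47 and none called. Their sum was 2365 and 2534 CPM in control TAC hearts 1 and 2 and 1235 and 1252 CPM in hearts 3 and 4. In Trbp-cKO TAC hearts it was 1059 to 1811 CPM. Of the 6 pericyte markers 1 (Cspg4) was called higher after TAC in both genotypes. Kcnj8 lay lower between Trbp-cKO TAC and sham (-0.54, adjusted p = 0.0037, edgeR), under the fold threshold. Cspg4 lay higher between genotypes after TAC (0.66, adjusted p = 0.0452, edgeR), also under that threshold. Of the 5 smooth muscle markers, Acta2 was called higher between genotypes in sham hearts (1.18, adjusted p = 0.0417) and after TAC (2.35, adjusted p = 0.000289) and lower after TAC in control hearts (-1.27, adjusted p = 0.0164, edgeR). Cnn1 was called higher between genotypes after TAC (0.90, adjusted p = 0.0453, edgeR), and Cnn1 and Tagln between Trbp-cKO TAC and sham. Smtn lay lower in both TAC against sham comparisons (-0.53 and -0.65, adjusted p = 0.0086 and 0.000834, edgeR), under the fold threshold. Of the 3 tested atrial markers, Nppa was called higher after TAC in both genotypes, Myl4 after TAC in Trbp-cKO hearts, and both between genotypes after TAC (2.09 and 1.90, adjusted p = 0.000512 and 0.00019, edgeR). The atrial sum was 1616 to 3860 CPM in control TAC and 10257 to 15676 CPM in Trbp-cKO TAC hearts. Nppa made up almost all of it, with means of 2919 of 2921 CPM and 12407 of 12413 CPM. Of the 5 tested chondrocyte and valve markers, Sox9 was called higher and Cnmd lower after TAC in both genotypes, and Acan and Chad higher in Trbp-cKO hearts. Of the 5 Schwann cell markers, Gfra3 was called lower between genotypes after TAC, and Gfra3 and Sox10 lower between Trbp-cKO TAC and sham. No cardiomyocyte, macrophage, lymphocyte or mesothelium marker was called. After TAC in control hearts all 7 cardiomyocyte markers lay lower, with a median of -0.54. The sum of these 7 was 21521 and 16913 CPM in control TAC hearts 1 and 2 and 40026 and 40058 CPM in hearts 3 and 4. In control sham hearts it was 42566 to 45088 CPM. In Trbp-cKO hearts 2 of the 7 lay higher after TAC, the median was -0.39, and Tnni3 passed the adjusted p (-0.72, adjusted p = 0.0198, edgeR). The fold of Tnni3 was under the threshold. Between genotypes after TAC 4 of the 7 lay higher. The part of these cells in the collagen values was not tested.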

How the data were processed

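Polyadenylated RNA of 16 ventricles was sequenced. Per the labels and the study's methods, the authors trimmed reads with cutadapt 2.3, checked them with FastQC, aligned them to GRCm38 with HISAT2 2.1.0 and quantified annotated genes with StringTie 1.3.4, whose script turned coverage into the deposited gene counts. The read length that script assumed, the annotation release and the strand setting are not given in the sources used here, so overlapping genes cannot be told apart. Exons of other genes overlap Col3a1, Col7a1 and Col20a1 on the same strand and Col4a1, Col4a2, Col4a3, Col5a1, Col6a6, Col9a3, Col15a1 and Col22a1 on the other.

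From the counts, edgeR 4.0.16 (R 4.3.3, with limma 3.58.1) gave TMM-scaled CPM and robust quasi-likelihood tests over all 16 hearts with 1 coefficient a group, after filterByExpr, with Benjamini-Hochberg adjustment over 19955 genes. A call needed an adjusted p of at most 0.05 and a log2 fold change of at least 0.8 in size, the study's thresholds. Alternatives were library-size scaling, DESeq2 1.42.0, the edgeR exact test and a quasi-likelihood fit on 2 groups, other filters and fold thresholds, halved counts, a replicate block, each heart left out and, added after the data were seen, leaving out control TAC hearts 1 and 2 or the mitochondrial genes. No replicates agreed within counting noise. Lengths, strands and coding sequences came from GENCODE on GRCm38, lengths either over all exons of a gene or over its principal coding transcript, as stated. P-values rest on 4 hearts a group.

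The members, classes and lists were chosen with earlier results of these data known. Values of every heart were to be given for the member of each class with the highest mean CPM per kb of exons, for the 3 largest called rises and falls in each comparison and for members called in the interaction. Other members described heart by heart were chosen after their values were seen.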

Additional observations from a re-analysis of the deposited data

Results flagged for a closer look

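Single hearts set apart from the other 3 of their group (a gap to the nearest heart, as a share of the group's range, above Dixon's 95% critical value) were found in 10 of 164 gene and group values, where chance gives about 1 in 20. In Trbp-cKO TAC heart 4, Col1a1 stood at 533 CPM (next 338), Col1a2 at 681 (next 399.7), Col22a1 at 46.2 (next 14.2), Col24a1 at 0.826 (next 0.0997) and Col27a1 at 25.9 CPM (next 11.7). That heart also had the lowest cardiomyocyte marker sum and the highest activated fibroblast marker sum of its group. In Trbp-cKO sham heart 3, Col14a1 stood at 22.2 CPM (next 19.3) and Col16a1 at 19.9 CPM (next 15.4). Control sham heart 4 had Col11a2 at 12.5 CPM (next 10.2), control sham heart 3 had the lowest Col22a1 at 0.989 CPM (next 1.37), and control TAC heart 4 had Col28a1 at 0.702 CPM (next 0.397).

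The effect of TAC differed between the genotypes by the interaction test for Col22a1, by 4.81 on the log2 scale (adjusted p = 0.00635, edgeR, 6.46e-10 to 0.0206 over the alternatives). It also differed for Col4a5, by 0.624 (adjusted p = 0.0352, edgeR, 0.000204 to 0.11 over the alternatives), a size below the fold threshold.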

How the results depend on the processing

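Single hearts left out are given in the next paragraph. Under the other alternatives, called genes, higher and lower, kept within 1.5 times their number except as follows. The cause of each exception was not tested. After TAC in control hearts, 14 higher became 3 without control TAC hearts 1 and 2 together (chosen after seeing the data), and 1 lower became 0 in that setting and under the replicate block. In sham hearts, 0 higher became 1 by the exact test and by the fit on 2 groups, and 0 lower became 2 by DESeq2, the exact test and the fit on 2 groups. Between genotypes after TAC, 9 higher became 0 in the fit on 2 groups, 5 with a log2 fold threshold of 1, 14 with no fold threshold and 5 with the replicate block. In the interaction 1 higher became 2 with no fold threshold, Col4a5 being added. The interaction could not be run by the exact test or on 2 groups.

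Leaving out each heart in turn gave 10 to 15 higher and 0 to 1 lower after TAC in control hearts, with 10 reached without control sham 1 or control TAC 1. The 0 lower was reached without control sham 2 or 4 or control TAC 1 or 2. Leaving hearts out gave 0 to 0 higher and 0 to 1 lower between sham groups, 4 to 11 higher between genotypes after TAC and 17 to 20 higher after TAC in Trbp-cKO hearts. Without Trbp-cKO TAC 4 the sham groups had 1 lower (Col22a1) and the genotypes after TAC had 4 higher. Among named genes, 62 results passed the adjusted p, and of their 1608 alternative values 1452 also passed, 156 did not, and 0 had the other sign. Of 2486 alternative values for the 98 results that did not pass, 67 passed, and 0 of those 67 had the other sign. With library size as the one scaling, the median log2 fold change of all genes was 0.11 between sham groups and 0.13 between TAC groups, against 0.01 and -0.01, which changed the sign of 6 collagen genes between sham groups and of 2 between TAC groups.

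Hearts with the same replicate number did not deviate together (r from -0.576 to 0.312 over 24 pairs, 6 of them over 0.1, and 3 hearts correlated best with their own number), so the numbers do not pair the hearts. Depth limits the 6 members under 1 CPM, whose highest count in any heart was 12 for Col19a1 to 52 for Col24a1.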

Other observations

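Ratios between chains that share a triple helix are given here per base of 1 principal coding transcript a gene, as descriptions without a test. The level of such a ratio depends on the length used, and comparisons between groups do not. The ratio of Col1a1 to Col1a2, partners in type I collagen, was 0.56 to 0.64 in control sham hearts, 0.63 to 0.76 in control TAC, 0.55 to 0.64 in Trbp-cKO sham and 0.71 to 0.78 in Trbp-cKO TAC hearts, so the sham and TAC hearts of the Trbp-cKO genotype did not overlap. Per base of all exons its mean was 1.25 in control sham hearts against 1.55 in hearts of the Trbp-cKO TAC group. The ratio of Col8a2 to Col8a1 was 0.052 ± 0.011 (SD, n = 4) in control sham hearts, 0.069 ± 0.040 in the control TAC group, 0.052 ± 0.023 in the Trbp-cKO sham group and 0.128 ± 0.036 in the Trbp-cKO TAC group, and the TAC groups overlapped. For type VI, the ratio of Col6a3 to Col6a1 was 0.288 ± 0.032 in control sham hearts and 0.177 ± 0.024 in Trbp-cKO TAC hearts, with control TAC at 0.228 ± 0.030 and Trbp-cKO sham at 0.206 ± 0.032. The ratio of Col6a1 to Col6a2, by contrast, varied little between groups, with means of 0.910 to 0.964 (1.80 to 1.90 per base of all exons).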
